A study of Mus musculus with 8 samples.

Results

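MAPK phosphatases, Sprouty proteins and Spred proteins act as brakes on the kinase cascades that run below the T cell receptor, CD28, cytokine receptors and receptors of the TNF family. Their genes *Dusp1*, *Dusp2*, *Dusp4*, *Dusp5*, *Dusp6*, *Dusp10*, *Spry1*, *Spry2* and *Spred1*, together with *Dusp11*, a relative of the phosphatase family, were followed here in splenic regulatory T cells (Tregs) that carried or lacked the TNF receptor TNFR2 at their surface. The 10 genes were found by symbol among the 20172 Ensembl genes of the table, and all 10 had a row. Of these, 9 averaged 10 or more normalized counts and entered the test, and *Spry2* did not.

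The RNA came from Tregs of female mice with the Foxp3 YFP-cre genotype, aged 8 to 12 weeks. In these mice the *Foxp3* locus drives a yellow fluorescent protein joined to Cre, so that the marker reports the cells that express Foxp3, and both populations carried the same allele. TNFR2+ Tregs and TNFR2- Tregs were sorted from spleen with 4 libraries of each (replicates 1 to 4). No treatment is given for either population, and the number of libraries of each matches the number of mice stated for the experiment, without a statement that each library came from a single mouse. P values therefore measure the spread between these libraries only.

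A MAPK is switched on when a kinase above it phosphorylates a threonine and a tyrosine in its activation loop, and dual-specificity phosphatases (DUSPs) of the MAPK phosphatase class remove both phosphates. Dusp1, Dusp2, Dusp4 and Dusp5 are nuclear enzymes whose genes are induced by MAPK signalling, Dusp6 acts on ERK in the cytoplasm, and Dusp10 prefers JNK and p38. Sprouty and Spred proteins act higher up, where they limit signalling through Ras, and several of these genes are themselves turned on by ERK and thus form negative feedback loops.

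Values are normalized counts, that is, estimated read counts per gene that the authors scaled between libraries with DESeq2. They summed to between 9576920 and 11492762 per library, and the spacing of low values gave an estimated depth of 9100000 to 12110000 reads. *Tnfrsf1b*, which encodes TNFR2, ranged from 1840 to 3148 normalized counts in the TNFR2+ sort and from 1177 to 1563 in the TNFR2- sort, the direction the sort implies. *Foxp3* ranged from 2812 to 3313 against 3292 to 4033 (log2 fold change, or log2FC, of -0.23, adjusted p = 0.232 from limma), and the other defining genes *Cd4*, *Cd3e*, *Il2ra* and *Ctla4* were well above 0 in every library. Replicate 3 of the TNFR2- Tregs stood apart from the other libraries on the second principal component (91.3, against -39.1 to 18.0 in the others), so results that rest on it are given with and without it.

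The 2 populations expressed different mixtures of these brakes rather than more or less of all of them. *Dusp10* was about 3 times lower in TNFR2+ Tregs (3.04-fold, 95% interval 2.34 to 3.94), and *Dusp2* was also lower. *Dusp4* and *Spry1* were higher in TNFR2+ Tregs, by 1.75-fold and 1.86-fold. Folds are on the log2(normalized count + 1) scale, from limma over the 13990 genes with a mean of at least 10, with Benjamini-Hochberg adjustment over all of them and a threshold of 0.05. In RNA of sorted populations, fewer cells that use a gene and less of its RNA per cell cannot be told apart.

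Of the 9 genes tested, 2 were higher past the threshold, where 4.52% of all tested genes were called higher, and 2 were lower, where 3.39% were called lower. In either direction the call was made for 4 of 9, against 7.91% of all tested genes. The other 5 did not pass the adjusted threshold, although 8 of the 9 had an unadjusted p under 0.05, all except *Dusp11*. In 3 of the 9 genes the lowest TNFR2+ library exceeded the highest TNFR2- library (8.08% of all tested genes), and in 3 the reverse held (7.29%). The median log2FC of the 9 was 0.37, beside -0.01 over all genes tested. With every library scaled to an equal sum, 904 of all genes were called higher and 309 lower, instead of 633 and 474, and the median of all genes shifted to 0.12. These genes were chosen with earlier results of the same data known, so the counts describe them and are no test of the family.

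**Figure D1:**
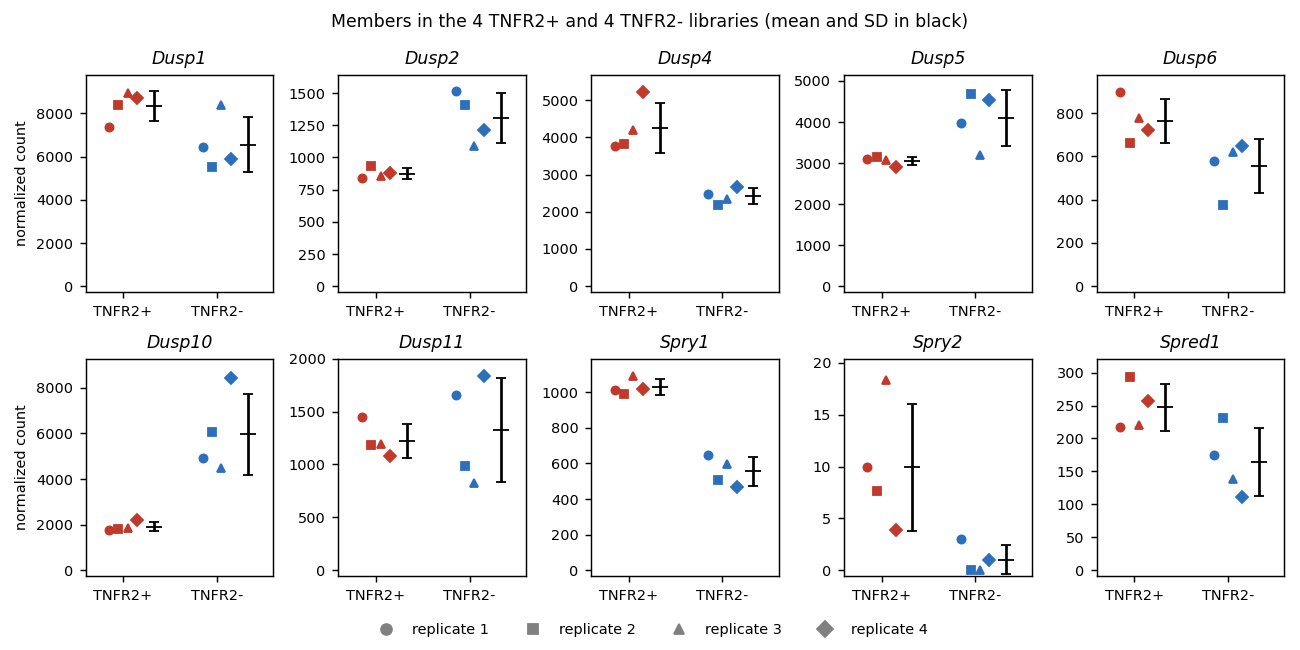
Normalized counts (vertical axis, starting at 0 and scaled separately for each gene) of the 10 genes in each library, with TNFR2+ Tregs in red and TNFR2- Tregs in blue, marker shape giving the replicate number, and black bars giving mean and SD over 4 libraries. *Dusp4*, *Spry1* and *Dusp10* show a clear gap between the populations, whereas the *Dusp11* values of the TNFR2- Tregs run from 824 to 1837 and enclose those of the TNFR2+ Tregs.

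*Dusp10* (MKP-5), the phosphatase of JNK and p38, showed the largest difference of the 9. The gene lies on the plus strand at chr1:184013302-184075636 of GRCm38. TNFR2+ Tregs had 1762, 1831, 1832 and 2218 normalized counts in replicates 1 to 4, and TNFR2- Tregs had 4916, 6042, 4473 and 8420. The groups were far apart, since the highest TNFR2+ library was below the lowest TNFR2- library by more than the whole range of the TNFR2+ libraries, and the TNFR2- values were the more scattered. The means were 1911 ± 207 and 5963 ± 1770 (SD, n = 4 each), with a log2FC of -1.60 (SE 0.17, adjusted p = 2.76e-04 from limma), and *Dusp10* ranked 22 by p among the 13990 genes. An exact two-sided permutation test gave p = 0.0286, which is the lowest value possible with 4 libraries a group. An uncharacterized coding gene on the opposite strand, *1700056E22Rik*, shares 1272 bases with it and had a mean of 142 normalized counts over the 8 libraries, against 3940 for *Dusp10*.

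The 250 bases before the start of *Dusp10* in RefSeq (chr1:184034131-184034380 of GRCm38.p6, plus strand) are printed because this gene differed most. That start lies inside the longer GENCODE gene. Capitals mark matches to any of the 10 motifs searched, which are listed with the other promoters, and here they are 2 GC boxes (GGGCGG or its complement).
Dusp10: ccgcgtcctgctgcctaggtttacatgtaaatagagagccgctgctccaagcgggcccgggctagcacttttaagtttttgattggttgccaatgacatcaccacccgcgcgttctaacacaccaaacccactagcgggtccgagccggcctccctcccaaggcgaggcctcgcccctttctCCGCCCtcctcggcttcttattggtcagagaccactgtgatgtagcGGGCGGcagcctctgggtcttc

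Among the inducible nuclear enzymes, *Dusp4* and *Dusp2* moved in opposite directions. *Dusp4* (MKP-2, chr8:34807297-34819894, plus strand) acts on ERK, JNK and p38 and had 3779, 3834, 4196 and 5213 normalized counts in TNFR2+ Tregs against 2480, 2180, 2331 and 2678 in TNFR2- Tregs. Every TNFR2+ library was above every TNFR2- library, and the widest departure within a group was the high value of TNFR2+ replicate 4. The log2FC was 0.81 (SE 0.13, 95% interval 0.53 to 1.08, adjusted p = 0.00191 from limma).

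*Dusp2* (PAC-1, chr2:127336159-127338376, plus strand) is a phosphatase found mainly in activated blood cells. It had 840, 933, 852 and 876 normalized counts in TNFR2+ Tregs and 1517, 1408, 1087 and 1214 in TNFR2- Tregs. TNFR2+ libraries were close together and all below the TNFR2- libraries. The log2FC was -0.57 (SE 0.14, adjusted p = 0.025 from limma), and this call was less firm than that of *Dusp4*. It held in 2 of the 8 fits that left out a library, those without TNFR2- replicate 3 (adjusted p = 0.0117) and without TNFR2- replicate 4 (adjusted p = 0.0378), and in the other 6 the adjusted p from limma ran up to 0.0777. When every library was scaled to an equal sum, the log2FC was -0.44 (adjusted p = 0.0683).

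*Dusp1* (MKP-1, chr17:26505590-26562128, minus strand), an immediate early phosphatase with preference for p38 and JNK, was the most abundant of the 10. Its normalized counts were 7361, 8403, 8936 and 8725 in TNFR2+ Tregs and 6422, 5497, 8388 and 5887 in TNFR2- Tregs. The groups overlapped through TNFR2- replicate 3, which lay among the TNFR2+ libraries. The log2FC was 0.37 (SE 0.13, 95% interval 0.08 to 0.65), with an adjusted p of 0.108 from limma and p = 0.0571 by the exact permutation test. Without TNFR2- replicate 3 it was 0.49 (adjusted p = 0.0149). With libraries scaled to an equal sum it was 0.50 (adjusted p = 0.0467), and with quantile normalization it was 0.56 (adjusted p = 0.0231), so that the call for *Dusp1* depended on 1 library and on the scaling. *Ergic1*, on the opposite strand, shares 640 bases with it.

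The ERK-selective pair behaved differently in its nuclear and its cytoplasmic member. *Dusp5* (chr19:53529109-53542431, plus strand), the nuclear ERK phosphatase, had 3108, 3140, 3071 and 2912 normalized counts in TNFR2+ Tregs and 3980, 4681, 3186 and 4532 in TNFR2- Tregs. No TNFR2+ library reached a TNFR2- library, but TNFR2- replicate 3 came within a small distance of the TNFR2+ libraries. The log2FC was -0.41 (SE 0.13, 95% interval -0.68 to -0.13, adjusted p = 0.0707 from limma), and -0.52 without TNFR2- replicate 3 (adjusted p = 0.0105).

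*Dusp6* (MKP-3, chr10:99263231-99267489, plus strand), which holds ERK in the cytoplasm and is a usual readout of ERK activity, had 897, 661, 780 and 721 normalized counts in TNFR2+ Tregs and 580, 374, 618 and 648 in TNFR2- Tregs. The groups did not overlap, and TNFR2+ replicate 2 exceeded TNFR2- replicate 4 by little. Its log2FC of 0.48 (SE 0.19, 95% interval 0.07 to 0.90) did not pass the adjusted threshold (adjusted p = 0.149 from limma).

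*Dusp11* belongs to the family by sequence but removes phosphates from the 5′ end of RNA and not from MAPKs. This gene (chr6:85942268-85961667, minus strand) had 1450, 1181, 1189 and 1077 normalized counts in TNFR2+ Tregs and 1654, 990, 824 and 1837 in TNFR2- Tregs. The populations overlapped fully, and the TNFR2- libraries scattered most, with a coefficient of variation of 37.3% against 13.0%. Its log2FC was -0.04 with a 95% interval from -0.54 to 0.45 (adjusted p = 0.941 from limma), so that changes of that size in either direction could not be told from 0.

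**Figure D2:**
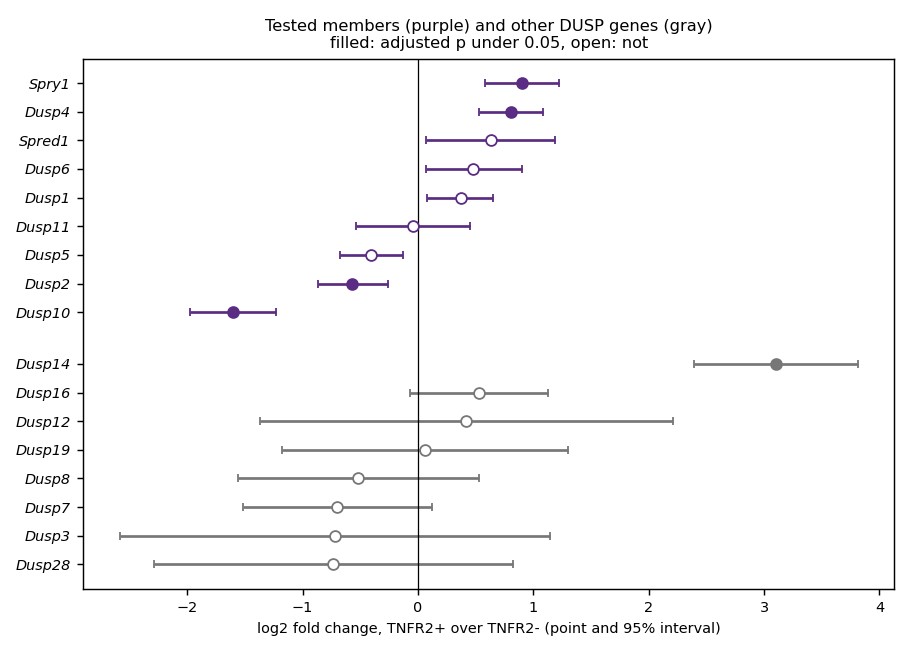
Log2FC of TNFR2+ over TNFR2- Tregs (horizontal axis) for the 9 genes tested (purple) and 8 other DUSP family genes tested (gray). Points have 95% intervals from limma and are filled where the adjusted p was under 0.05. Among the 9, *Dusp10* at -1.60 stands furthest from 0, and the interval of *Dusp11*, from -0.54 to 0.45, is the only one that spans 0. Of the gray genes, *Dusp14* lies further out, at 3.10, and only its interval leaves out 0.

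Sprouty genes and *Spred1*, which act high in the Ras pathway, all had higher means in TNFR2+ Tregs, but of these only *Spry1* passed the test. *Spry1* (chr3:37639947-37644598, plus strand), an inhibitor of receptor signalling to Ras, had 1012, 990, 1090 and 1019 normalized counts in TNFR2+ Tregs and 650, 508, 595 and 467 in TNFR2- Tregs. All TNFR2+ libraries lay in a narrow band well above the TNFR2- libraries. The log2FC was 0.90 (SE 0.15, 95% interval 0.58 to 1.22, adjusted p = 0.00266 from limma).

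*Spry2* (chr14:105891947-105896819, minus strand), the paralog of *Spry1*, was near the floor of the measurement. It had 9.96, 7.61, 18.3 and 3.85 normalized counts in TNFR2+ Tregs and 3.00, 0, 0 and 1.03 in TNFR2- Tregs, where a single read was worth 0.85 to 1.152 normalized counts. Although the TNFR2+ libraries all lay above the TNFR2- libraries (exact two-sided permutation test, p = 0.0286), these are values of a few reads, and *Spry2* is listed at 0 in 2 libraries, so no fold is given. In a limma fit without the filter on low values its adjusted p was 0.139.

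*Spred1* (chr2:117121374-117182279, plus strand), which brings the Ras-inactivating protein neurofibromin to the membrane, had 217, 294, 221 and 256 normalized counts in TNFR2+ Tregs and 175, 231, 138 and 112 in TNFR2- Tregs. TNFR2- replicate 2 lay among the TNFR2+ libraries, and the others were below. The log2FC was 0.63 (SE 0.26, 95% interval 0.07 to 1.19), with an adjusted p of 0.162 from limma and p = 0.0857 by the exact permutation test.

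To compare levels between genes, normalized counts were divided by the median length of the coding transcripts in kilobases. In TNFR2+ Tregs the order of mean levels per kilobase was *Dusp1* (4619), *Dusp4* (1553), *Dusp5* (1236), *Dusp10* (1087), *Dusp2* (541), *Spry1* (414), *Dusp6* (297), *Dusp11* (190), *Spred1* (66.3) and *Spry2* (4.76). Only the neighbours *Dusp5* and *Dusp10* overlapped between libraries. In TNFR2- Tregs *Dusp10* moved up to the second place (3392 per kilobase), next to *Dusp1* (3620), and the libraries of these 2 genes overlapped. *Dusp5* (1656), *Dusp4* (882), *Dusp2* (808), *Spry1* (224), *Dusp6* (215), *Dusp11* (206), *Spred1* (44.0) and *Spry2* (0.484) followed. Here the neighbours *Dusp4* and *Dusp2*, *Spry1* and *Dusp6*, and *Dusp6* and *Dusp11* also overlapped, and with the longest transcript as divisor *Dusp11* came before *Spry1* and *Dusp6*. That divisor kept *Dusp10* in second place but further from *Dusp1*, at 2140 against 3290 per kilobase.

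The make-up of the MAPK phosphatase transcripts was then expressed as a share of their sum per kilobase within each library, over *Dusp1*, *Dusp2*, *Dusp4*, *Dusp5*, *Dusp6* and *Dusp10*. The sum ran from 8575 to 9986 per kilobase in TNFR2+ libraries, against 10024 to 11856 in TNFR2- libraries. *Dusp10* took 10.9% to 12.6% of it in the TNFR2+ population, against 24.9% to 40.4% in the TNFR2- population. The share of *Dusp4* was 15.2% to 19.1% against 7.81% to 9.03%. *Dusp1* was the largest component of the TNFR2+ libraries, with 47.5% to 51.5%, while it took 27.4% to 45.3% of the TNFR2- libraries. In TNFR2- replicates 2 and 4 the share of *Dusp10* (33.8% and 40.4%) exceeded that of *Dusp1* (29.8% and 27.4%). With the longest transcript as divisor, chosen after seeing the data, this held in replicate 4 (30.9% against 30.3%) and not in replicate 2 (25.1% against 32.0%). Without division by length the sums of the populations overlapped (17746 to 20665 and 19894 to 23379 normalized counts), as did the shares of *Dusp1* (41.5% to 45.4% and 25.2% to 41.8%). On that scale *Dusp10* still took 9.32% to 10.7% and 22.3% to 36.0%. Shares within a sum depend on each other, so they are given as a description without a test.

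**Figure D3:**
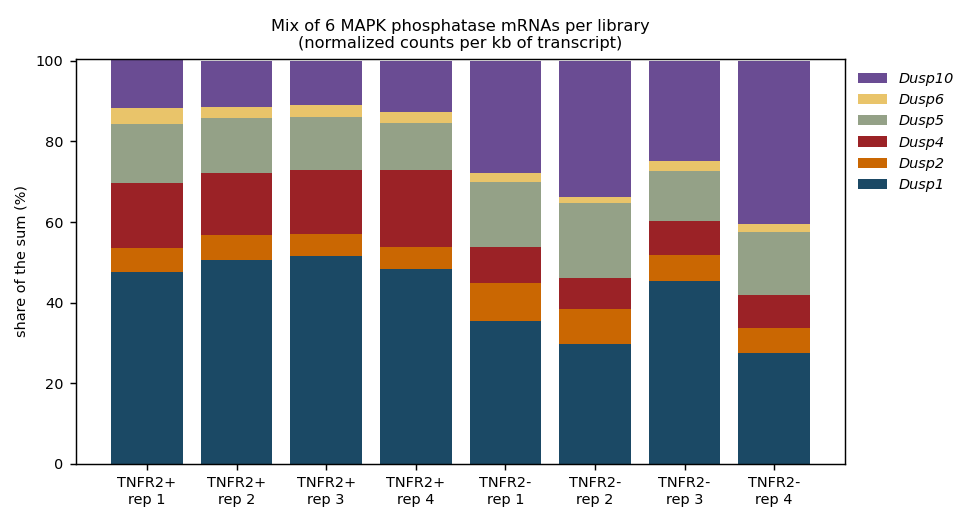
Share of each of 6 MAPK phosphatase genes (vertical axis, percent of their summed normalized counts per kilobase) in the 8 libraries, 1 stacked bar per library. *Dusp10* occupies at most 12.6% of a TNFR2+ bar and at least 24.9% of a TNFR2- bar, and *Dusp4* occupies at least 15.2% and at most 9.03%.

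Ratios of related genes within a library do not depend on how libraries were scaled, and 3 of them were compared by exact two-sided permutation tests with adjustment over the 3. The log2 ratio of *Dusp4* to *Dusp1*, which are both induced nuclear phosphatases, averaged -0.98 ± 0.18 in the TNFR2+ libraries against -1.42 ± 0.30 in the TNFR2- libraries (SD, n = 4, exact permutation p = 0.0286, adjusted p = 0.0429). The log2 ratio of *Dusp5* to *Dusp6*, the nuclear and the cytoplasmic ERK phosphatase, was 2.01 ± 0.19 and 2.90 ± 0.54 (SD, n = 4, exact permutation p = 0.0286, adjusted p = 0.0429). In both ratios the groups did not overlap. For *Dusp4* to *Dusp1* they nearly touched, at -1.13 in TNFR2+ replicate 2 and -1.14 in TNFR2- replicate 4. On average *Dusp4* thus differed between the populations by more than *Dusp1* did. *Dusp5* lay lower against *Dusp6* in TNFR2+ Tregs than in TNFR2- Tregs, although neither of these 2 genes passed on its own. With a library left out the adjusted p of both ratios was 0.0571 to 0.0857 in 5 of 8 cases, those without 1 of the TNFR2+ replicates or without TNFR2- replicate 3 and 0.0429 in the other 3. The log2 ratio of *Spry1* to *Spry2*, taken with 1 added to each value, was 6.73 ± 0.79 and 8.35 ± 0.90 with overlapping groups (SD, n = 4, exact permutation p = 0.0571, adjusted p = 0.0571), and it rests on *Spry2* values near 0. The difference of this ratio was -1.62, but -2.18 with 0.5 added and -0.36 with 5 added (adjusted p = 0.257, exact permutation).

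**Figure D4:**
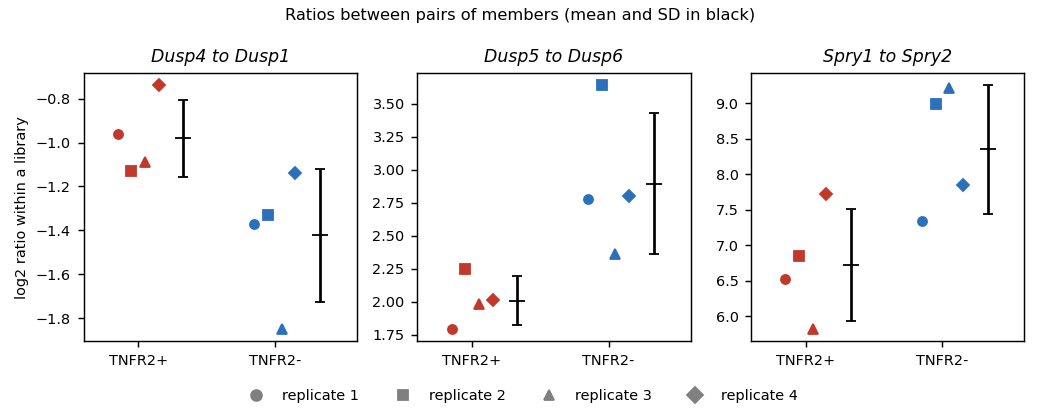
Log2 ratio of *Dusp4* to *Dusp1*, *Dusp5* to *Dusp6* and *Spry1* to *Spry2* within each library (vertical axes), TNFR2+ Tregs in red and TNFR2- Tregs in blue, with mean and SD over 4 libraries in black. The groups do not overlap in the *Dusp5* to *Dusp6* panel, nearly touch in the *Dusp4* to *Dusp1* panel and overlap in the *Spry1* to *Spry2* panel.

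RefSeq promoter windows, from 250 bases before to 50 bases after the start on GRCm38.p6, were given for 9 of the 10 genes. *Dusp4* is named only. Their GC content ran from 56.7% to 72.3% with a median of 64.3%, beside a median of 52.7% over all 32851 windows. Matches to 10 motifs were sought on either strand. A match is a run of letters and not a shown binding site.

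The cAMP response element or CRE (TGACGTCA) was in 1 of the 9 windows, that of *Dusp1*, and in 1.79% of all windows. Its core (TGACG), which the full element contains, was in *Dusp1*, *Dusp2*, *Dusp5* and *Dusp11* and in 20.8% of all windows. The CArG box, which serum response factor binds, was in *Dusp5* alone among the 9, as 2 adjacent copies that begin 82 and 72 bases before the start, and in 1.63% of all windows. E-boxes (CACGTG) were in *Dusp1* and *Dusp2*, beside 7.15% of all windows. EGR letters (GCGNGGGCG), which can overlap a GC box, were in *Dusp2* and in 5.55% of all windows. GC boxes (GGGCGG) were in 6 of the 9, namely *Dusp1*, *Dusp2*, *Dusp5*, *Dusp10*, *Spry1* and *Spred1*, beside 35.7% of all windows.

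Another 4 motifs were in none of the 9 windows. These were the AP-1 site (TGANTCA), which 7.81% of all windows hold, and the ETS site (CCGGAAG), which 8.86% hold. FOXO letters (TGTTTAC) are in 3.65% of all windows, and a TATA box (TATAAA) is in 13.6%.

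The 250 bases before the start are printed for the called genes *Dusp2* (chr2:127335909-127336158, plus strand) and *Spry1* (chr3:37639697-37639946, plus strand), and for *Dusp1* (chr17:26508473-26508722, minus strand) and *Dusp5* (chr19:53528895-53529144, plus strand), which hold the CRE and the CArG boxes. All are written 5′ to 3′ on the strand of the gene, with capitals for matches to any of the motifs above. The RefSeq start of *Dusp1*, at 26508472, lies far inside the longer GENCODE gene, and that of *Dusp5* lies just inside its GENCODE gene. The long run of capitals in *Dusp1* joins the CRE and a GC box, and the long run in *Dusp5* is the pair of CArG boxes.
Dusp2: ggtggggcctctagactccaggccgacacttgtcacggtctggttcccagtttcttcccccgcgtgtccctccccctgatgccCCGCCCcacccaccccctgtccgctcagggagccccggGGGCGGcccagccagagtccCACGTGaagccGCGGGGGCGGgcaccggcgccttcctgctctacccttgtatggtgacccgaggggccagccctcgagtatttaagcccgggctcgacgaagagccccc
Spry1: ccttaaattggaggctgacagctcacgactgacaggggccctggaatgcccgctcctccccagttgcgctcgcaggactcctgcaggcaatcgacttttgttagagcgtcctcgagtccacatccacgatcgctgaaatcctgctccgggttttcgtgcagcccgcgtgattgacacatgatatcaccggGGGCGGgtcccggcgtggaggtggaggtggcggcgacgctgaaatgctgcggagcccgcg
Dusp1: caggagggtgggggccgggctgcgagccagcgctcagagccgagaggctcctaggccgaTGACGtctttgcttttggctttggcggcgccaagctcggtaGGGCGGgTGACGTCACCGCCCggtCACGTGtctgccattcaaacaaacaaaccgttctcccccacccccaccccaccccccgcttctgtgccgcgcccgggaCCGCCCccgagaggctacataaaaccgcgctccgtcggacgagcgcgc
Dusp5: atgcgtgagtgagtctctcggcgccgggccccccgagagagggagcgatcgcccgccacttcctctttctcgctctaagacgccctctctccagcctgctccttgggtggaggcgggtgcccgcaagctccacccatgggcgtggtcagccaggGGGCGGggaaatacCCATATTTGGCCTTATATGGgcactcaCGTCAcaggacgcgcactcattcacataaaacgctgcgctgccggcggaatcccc
*Dusp2*, lower in TNFR2+ Tregs, and *Spry1*, higher, shared only the GC box among these motifs.

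Phosphatases outside the 10 genes were examined next, from lists of related genes, and there the largest differences were not in the genes above. Of 15 other DUSP family genes with a row, 8 were tested and 1 passed, *Dusp14* (MKP-6), which dampens T cell receptor signalling. It had 529, 641, 887 and 513 normalized counts in TNFR2+ Tregs and 64.2, 58.5, 147 and 48.6 in TNFR2- Tregs. No value of a TNFR2- library came near those of TNFR2+ libraries, and the log2FC was 3.10 (SE 0.33, adjusted p = 2.51e-04 from limma). The 8 had a median of -0.23, and the most abundant among them, *Dusp16*, a JNK phosphatase, had a log2FC of 0.53 (adjusted p = 0.279).

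Of 9 other phosphatases directed at MAPKs, 2 were higher and none lower past the threshold, with a median of 0.15. *Ptpn5* (STEP), a tyrosine phosphatase of ERK and p38 known best from neurons, had 862, 892, 864 and 706 normalized counts in TNFR2+ Tregs and 158, 49.3, 126 and 31.3 in TNFR2- Tregs. Its log2FC was 3.45 (SE 0.41, adjusted p = 4.94e-04 from limma). *Ptpn7* (HePTP), the ERK tyrosine phosphatase of lymphocytes, was higher by less, at 0.45 (adjusted p = 0.0335), a call that held in 2 of 8 fits with a library left out. *Ppp2ca*, the catalytic subunit of protein phosphatase 2A and the most abundant of the list, had a log2FC of -0.11 (adjusted p = 0.726). None of the 3 other Sprouty and Spred genes tested passed. All 3 had a log2FC below 0, with a median of -1.08. Of these, *Spry4* and *Spred3* were at low levels, with means of 11.2 against 15.9 and 10.9 against 27.7 normalized counts. The most abundant of them, *Spred2*, had a log2FC of -0.07 (adjusted p = 0.858).

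Further brakes on Ras gave 1 higher and 2 lower of 13 tested, with a median log2FC of -0.23. *Rasa3* and *Rasal3*, GTPase-activating proteins that switch Ras off, were lower in TNFR2+ Tregs, at -1.16 (adjusted p = 4.94e-04 from limma) and -0.52 (adjusted p = 0.0101). *Dab2ip*, another protein of that class, was higher at 1.66 (adjusted p = 0.0245) from a low level, a mean of 153 against 48.7 normalized counts. Its call held in 3 of 8 fits with a library left out.

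Upstream of Ras, 2 of 14 genes were lower and none higher, with a median of -0.27. *Rasgrp2*, an exchange factor that acts mainly on Rap1, was lower at -1.5 (adjusted p = 5.62e-04 from limma), and *Sos1*, the exchange factor of Ras, at -0.51 (adjusted p = 0.0411). The call of *Sos1* held in 5 of 9 alternatives with all libraries and in 1 of 8 with a library left out. The most abundant gene of that list, *Plcg1*, had a log2FC of 0.02 (adjusted p = 0.955).

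None of the 14 genes from Ras to ERK and its RSK kinases passed the adjusted threshold in limma, while at an unadjusted p under 0.05 there were 2 higher and 1 lower, with a median of 0.00. In the JNK and p38 cascades, on which Dusp10 acts, 2 of 15 were higher and none lower, with a median of -0.15. These were *Map2k3*, a kinase that activates p38, at 0.92 (adjusted p = 0.0145 from limma), and *Mapkapk2*, a kinase that p38 activates, at 0.61 (adjusted p = 0.0157). *Map3k1* was the most abundant of the list, at -0.19 (adjusted p = 0.438).

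Genes that are read as output of these pathways did not move as a block. Of 8 ERK output genes tested, 1 was higher and 1 lower, with a median of -0.12. *Emp1*, a membrane protein gene, was higher at 2.20 (adjusted p = 0.0364 from limma) with groups that overlapped through TNFR2- replicate 3, and it was at 2.84 without that library (adjusted p = 0.0027). Its call held in 2 of 8 fits with a library left out. *Egr1*, a transcription factor of the immediate early class, was lower at -1.11 (adjusted p = 4.94e-04).

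Immediate early genes, which respond within minutes to a stimulus and can respond to cell handling, were lower in 7 of 14 and higher in none, with a median of -0.45. The 7 include *Egr1*, also counted among the ERK output genes. By sign 11 were below 0 and 3 above, with *Egr2* the furthest above at 0.87 (adjusted p = 0.0848 from limma). The number lower was 4 with an equal sum in every library, 5 with quantile normalization and 3 without an intensity trend. Under the replicate block 8 were lower and 1 was higher. *Jun* was at -1.17 (adjusted p = 0.00119 from limma), *Nr4a1*, a reporter of T cell receptor signals, at -0.98 (adjusted p = 5.87e-04), and *Fos* at -0.69 (adjusted p = 0.00663). *Junb*, the most abundant of them, was at -0.18 (adjusted p = 0.218). Any link of these values to those of *Dusp10*, *Dusp2*, *Dusp4* and *Spry1* was not tested. Of 8 heat shock genes, *Hspa1b* was lower at -0.67 (adjusted p = 0.0215) and none was higher, and *Hspa8*, the most abundant, was at 0.08 (adjusted p = 0.743). The call of *Hspa1b* held in 3 of 8 fits with a library left out.

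**Figure D5:**
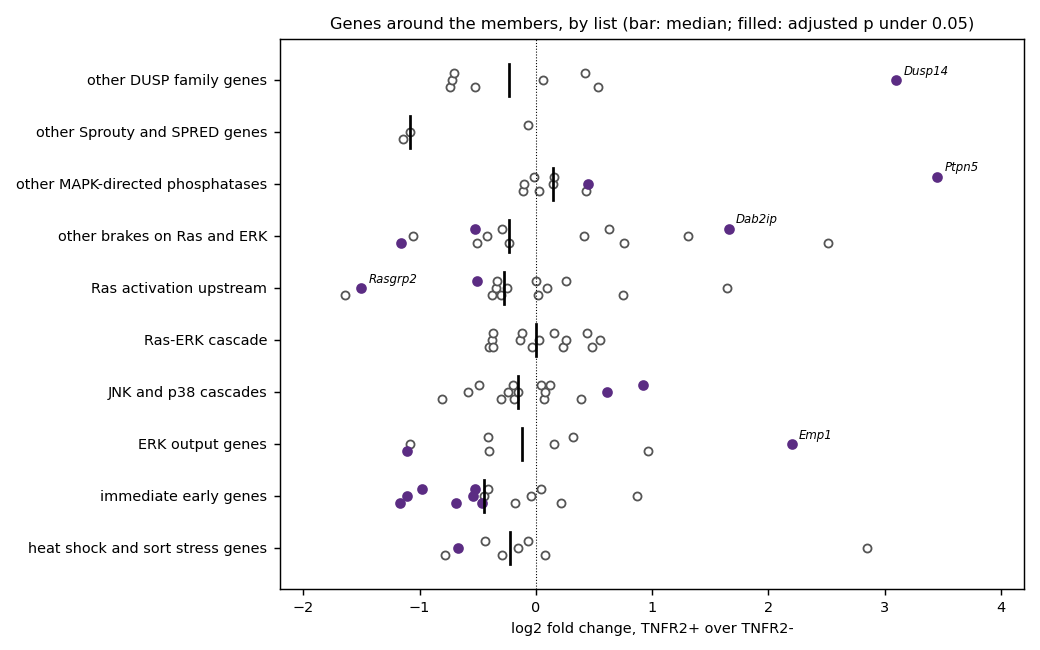
Log2FC of TNFR2+ over TNFR2- Tregs (horizontal axis) for every tested gene of 10 lists around the MAPK pathways, with filled points for an adjusted p under 0.05 from limma and a bar at the median of each list. *Ptpn5* at 3.45 and *Dusp14* at 3.10 lie furthest to the right, and 7 filled points of the immediate early genes lie to the left of 0.

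Some genes used as markers of other cells differed between the populations too, and their part in the differences above was not tested. Markers of B cells (10 of 15 genes analysed) summed to 4000 to 6090 normalized counts in TNFR2+ libraries, against 1800 to 2940 in TNFR2- libraries. Most of this was *Ighm*, which was higher at 1.27 (adjusted p = 7.45e-04 from limma). The defining B cell gene *Cd79a* was at 0 to 2.90 and 0 to 6.10, and *Ms4a1*, another, had a log2FC of 0.26 (adjusted p = 0.808). The 6 B cell genes tested had a median log2FC of 1.07, with 5 above 0 and 1 below. Among them *Cd22*, with a mean of 309 against 150 normalized counts, was at 1.2 and did not pass (adjusted p = 0.0612 from limma). Myeloid markers (11 of 20) summed to 954 to 1430 and 607 to 949. In TNFR2+ libraries this was mostly *Cybb*, which was higher at 1.92 (adjusted p = 0.00239). In TNFR2- libraries the mean of *Cybb* (212) was below that of *Xcr1* (252). The 6 myeloid genes tested had a median log2FC of -0.53, with *Xcr1* lower at -0.83 (adjusted p = 0.0498), and the defining gene *Csf1r* reached 9.19 at most in TNFR2- Tregs and stood at 0 in the 4 TNFR2+ libraries. The call of *Xcr1* was lost without the filter, without an intensity trend, with equal sums and under the replicate block. Markers of cytotoxic lymphocytes (9 of 12) summed to 228 to 364 and 137 to 322, with *Nkg7* higher at 3.19 (adjusted p = 0.00927). Those of platelets (2 of 6) summed to 116 to 335 and 417 to 650, with *Itgb3* lower at -1.78 (adjusted p = 5.14e-04), and those of erythroid cells (2 of 9) to 17.1 to 70.7 and 1.63 to 43.3. Among 10 Treg identity genes, 6 were higher past the threshold, namely *Ctla4*, *Ikzf2*, *Cd3e*, *Tnfrsf18*, *Nrp1* and *Izumo1r*, and none was lower past it. Of the 4 that did not pass, *Cd4* and *Cd3d* were above 0. *Il2ra* (-0.34, adjusted p = 0.086 from limma) and *Foxp3* (-0.23, adjusted p = 0.232) were below 0. Without an intensity trend 3 of the 10 were called higher instead of 6.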

How the data were processed

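RNA was sequenced from 8 libraries of sorted splenic Tregs. Per the labels and the study's methods, stranded total RNA libraries were trimmed with Trim Galore and quantified with salmon 1.3.0 against GRCm38, and the authors scaled the gene values between libraries with DESeq2 1.28. What they deposited is this normalized signal per gene on a linear scale. How transcripts were summed to genes is not given in the sources used here. Low values lay on whole multiples of a single read, within 0.1, in 69.7% to 96.4% of cases for 2806 long genes with a single transcript (20% by chance), but in 32.0% to 43.1% for genes with several, so reads were not recovered and no count model was fitted.

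Symbols and coordinates came from GENCODE on GRCm38 (20008 of 20172 identifiers matched). No near-identical copy of the 10 genes was found with blastn 2.17.0 (95% identity over 50% of the transcript). Groups came from the titles. Values were tested as log2(normalized count + 1) with limma 3.58.1 in R 4.3.3 (intensity trend, two-sided, no covariates), in genes with a mean of at least 10. The procedure was tested on simulated data. Single genes and ratios were also tested with exact permutation over 70 relabellings.

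The genes and lists were chosen with earlier results of these data known. The genes named are the 10, *Tnfrsf1b*, up to 4 called genes of each list with the largest changes, and its most abundant gene, which for 1 list is not reported here. Other genes named, the marker genes and *Foxp3* among them, were picked after their values were seen. Alternatives were other pseudocounts (0.5 and 5), filters (none, and a mean of at least 50), scalings, variance moderation, library weights, a replicate block and each library left out.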

Additional observations from a re-analysis of the deposited data

Results flagged for a closer look

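*Dusp10* in TNFR2+ Tregs had 2218 normalized counts in replicate 4, apart from the 1762 to 1832 of the other 3 libraries. Its gap to the nearest of them was 0.847 of the range of the group, above Dixon's 95% critical value for 4 samples. It was the only value that met this criterion among 20 groups of 4 (10 genes in 2 populations), and chance alone flags about 1 group in 20. TNFR2- replicate 4 also held the highest *Dusp10* value of its group, 8420, although the labels do not say whether the numbers pair the libraries. Without TNFR2+ replicate 4 the log2 fold change of *Dusp10* was -1.68 (adjusted p = 5.76e-04 from limma).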

How the results depend on the processing

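*Dusp4*, *Dusp10* and *Spry1* kept their direction and their adjusted p under 0.05 in all 9 alternatives with all libraries and in all 8 fits with a library left out, and *Dusp2* in 7 of 9 and 2 of 8. No result reversed its direction among those called. The signs of *Dusp11*, *Junb*, *Ppp2ca*, *Plcg1* and *Spred2*, none of them called, changed with the scaling or with a library left out. Without an intensity trend, limma called 283 genes higher and 182 lower instead of 633 and 474, of the 9 genes tested 1 was lower instead of 2, and *Dusp2* (-0.57) had an adjusted p of 0.0953. With an equal sum in every library the median of all genes shifted to 0.12, 904 genes were called higher and 309 lower, 1 of the 9 was lower, *Dusp1* passed (0.50) and *Dusp2* did not (-0.44). *Dusp1* passed with quantile normalization (0.56) and *Dusp5* with library weights (-0.42, adjusted p = 0.0404). With each library left out, 344 to 761 genes were higher and 278 to 540 lower, 2 to 3 of the 9 were higher and 1 to 3 lower. Omitting TNFR2+ replicate 1 (403 higher), 2 (344 higher, 298 lower) or 3 (375 higher, 315 lower) or TNFR2- replicate 1 (305 lower) or 2 (278 lower) moved these counts most. Log2 fold changes ran from 0.29 to 0.49 (*Dusp1*), -0.65 to -0.49 (*Dusp2*), 0.71 to 0.86 (*Dusp4*), -0.52 to -0.34 (*Dusp5*), 0.31 to 0.57 (*Dusp6*), -1.73 to -1.42 (*Dusp10*), -0.25 to 0.14 (*Dusp11*), 0.82 to 0.98 (*Spry1*) and 0.46 to 0.81 (*Spred1*). Differences of the log2 ratios ran from 0.30 to 0.54 (*Dusp4* to *Dusp1*), -1.07 to -0.64 (*Dusp5* to *Dusp6*) and -1.96 to -1.32 (*Spry1* to *Spry2*). The causes of these shifts were not tested.

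Same-numbered libraries did not deviate together from their group means (correlations of -0.04 to 0 over all genes tested). Every pair of a TNFR2+ and a TNFR2- library lay near 0 (-0.1 to 0.08), so these correlations cannot tell which libraries share mice. The labels do not say whether the numbers pair them. A fit with the replicate block changed no call of the 9 genes, with *Dusp10* at -1.60 (adjusted p = 1.47e-04). Under the replicate block the ratios of *Dusp4* to *Dusp1* (0.44) and of *Dusp5* to *Dusp6* (-0.89) had an adjusted p of 0.125, the smallest that exact sign flips of 4 pairs allow. Among other genes named, calls of *Dab2ip*, *Emp1*, *Hspa1b*, *Map2k3*, *Mapkapk2*, *Ptpn7* and *Sos1* were lost without an intensity trend and in some fits with a library left out. Of those 8 fits, the calls of *Map2k3* and *Mapkapk2* held in 6, *Dab2ip* and *Hspa1b* in 3, *Emp1* and *Ptpn7* in 2 and *Sos1* in 1. Those of *Fos* and *Rasal3* were lost without an intensity trend only. *Sos1* was also lost under the replicate block (adjusted p = 0.0511), without the filter (0.0598) and with equal sums (0.113), and *Hspa1b* with equal sums (0.0592). At 9100000 to 12110000 estimated reads per library, *Spry2* rests on a few reads.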
